A study of Homo sapiens with 6 samples.

Results

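Heparan and chondroitin sulphate proteoglycan genes were followed in LA1-55n, a human neuroblastoma cell line, after an induced hairpin against glycine decarboxylase. The genes were chosen by symbol: the glypican (GPC) and syndecan (SDC) core proteins, and the enzymes that start, extend, epimerise, sulphate or desulphate heparan and chondroitin chains (XYLT, EXT, EXTL, NDST, GLCE, HS2ST, HS3ST, HS6ST, SULF, CHSY, CSGALNACT, CHST, DSE and UST). Of 59 measured symbols that match this rule, 3 antisense transcripts were left out, which leaves 56 of the 14779 genes measured. One of the 56, SDC4P, is a pseudogene of SDC4, and 8 CHST genes act mainly on other glycans. Each of the 56 had 1 named probe set.

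Per the labels, 3 Affymetrix Human Gene 2.0 ST arrays came from cells with the hairpin shGLDC99 and 3 from cells with a hairpin against GFP (shGFP). The Tet-On hairpins of both groups were induced with 0.5 µg/ml doxycycline for 7 days, so every array comes from doxycycline-treated cells. Each group rests on 1 hairpin sequence, and arrays without doxycycline or with a second GLDC hairpin were not analysed here. The comparison asks which transcripts differ with the GLDC hairpin in place of the control hairpin.

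Proteoglycans are proteins that carry long sulphated sugar chains on serine residues. On heparan sulphate, the chain is first built by EXT enzymes and N-sulphated by NDST enzymes. GLCE then turns glucuronic acid into iduronic acid, and 2-O, 6-O and 3-O sulphotransferases add further sulphate. Chondroitin and dermatan sulphate are built and sulphated by separate enzymes. The sulphation pattern sets which growth factors and guidance cues a chain binds, and in neural cells these chains present FGFs, pleiotrophin and Slit proteins to their receptors.

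The hairpin target and the cell type were checked first. GLDC, the decarboxylase of the glycine cleavage system, read 5.98, 5.65 and 5.93 on the log2 scale in the shGLDC99 arrays, against 7.85, 7.90 and 7.81 in the shGFP arrays. Its log2 difference was -2.0 ± 0.10 (SE, limma adjusted p = 0.00101), and 24.9% of the control level was left. An exact two-sided permutation test over the 6 arrays gave p = 0.1, the smallest that 3 against 3 allows. Arrays of 1 group correlated at 0.993 to 0.994 and arrays of different groups at 0.988 to 0.990. Of 9 measured markers of adrenergic neuroblastoma, 8 lay at or above 5.09, the median level over all genes, with DBH below it. Of these 9, ISL1 (-1.09) and GATA3 (-0.48) fell and CHGB (0.41) rose between the groups (adjusted p = 0.00412, 0.0161 and 0.0145). The log2 of the summed level of the 9 was 10.743 to 10.822 with shGLDC99, against 10.900 to 10.998 with shGFP. That sum leans on the brightest genes, such as GATA3. By gene, 5 of the 9 differences were positive and 4 negative, with a median of 0.08. The part of these markers in the results was not tested. Of 15 measured markers of glia, fibroblasts, endothelium, leukocytes and epithelium, 2 lay at or above the median gene level (THY1 and CD68).

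In the shGLDC99 cells 4 of the 56 genes rose and 4 fell, among them 3 of 10 core proteins, 3 of 22 heparan enzymes and 1 of 13 chondroitin and dermatan enzymes. UST, HS6ST3, GLCE and SDC3 rose by 0.67 to 1.24 on the log2 scale, and GPC3, HS2ST1, CHST8 and GPC6 fell by 0.39 to 0.67. A gene is said to have risen or fallen where its Benjamini-Hochberg adjusted p in limma, taken over all 14779 genes, was under 0.05. The 8 changed genes are 14.3% of the members, where 8.52% of all genes changed. The members, too, were chosen with earlier results of these data known, so the higher share is no independent result about them. Rises made up 7.14% of the members against 3.72% of all genes, and falls 7.14% against 4.80%. The median log2 difference was -0.05 over the members and -0.01 over all genes. The groups did not overlap for 15 members (26.8%), where 30.8% of all genes showed no overlap. RNA from whole cultures cannot tell fewer cells of a type from less RNA per cell.

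**Figure D1:**
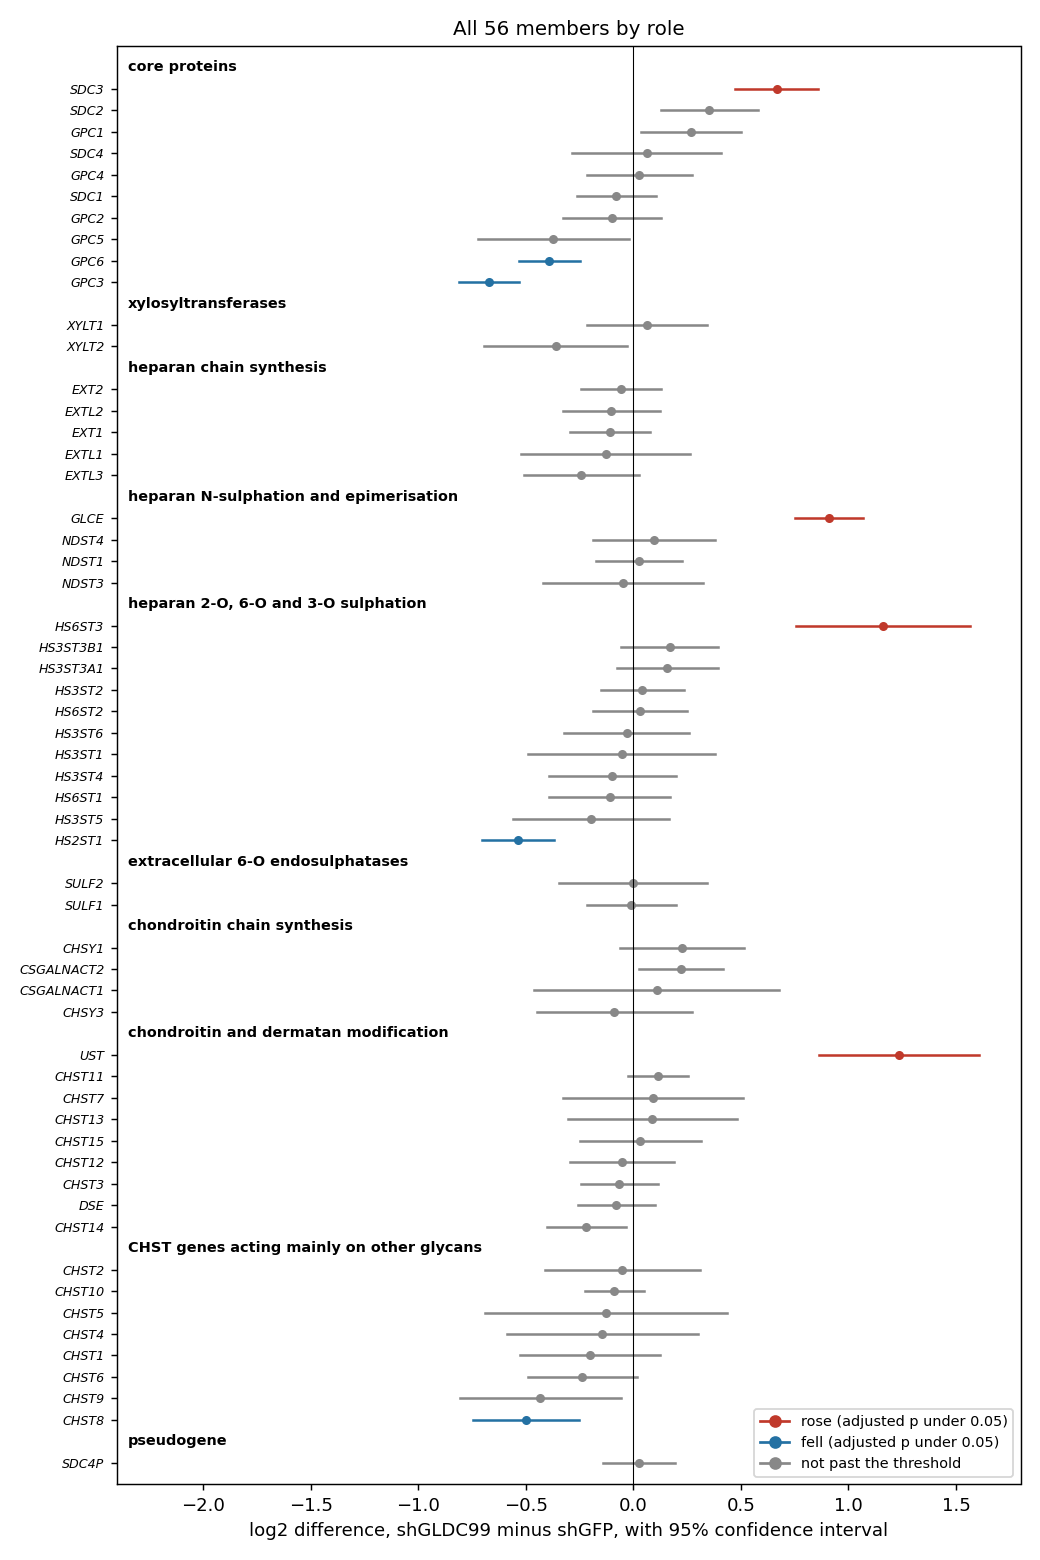
Log2 difference (shGLDC99 minus shGFP, horizontal axis) of all 56 members, grouped by role, with points for the estimate and bars for the 95% confidence interval of the limma model. UST (1.24), HS6ST3 (1.16), GLCE (0.91) and SDC3 (0.67) lie to the right of 0 and GPC3 (-0.67), HS2ST1 (-0.53), CHST8 (-0.50) and GPC6 (-0.39) to the left, while the other 48 are grey.

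The 250 bases before the annotated start are shown for 6 of the 8 changed genes as RefSeq (GRCh38.p14) gives them, to set promoters of rising and falling members beside each other. GPC3 had no matched entry, and the 2 windows of CHST8, whose change rests on dim signal, are described without being printed. The array's own build is not stated, so these positions belong to the RefSeq genes and not to the probe sets. Each line runs 5′ to 3′ on the gene's strand. Capitals mark GGGCGG or its other-strand form CCGCCC, the core of the GC box bound by SP1, and TATAAA or its other-strand form TTTATA. The first 4 genes rose and the last 2 fell.
UST, chr6:148746780-148747029, plus strand: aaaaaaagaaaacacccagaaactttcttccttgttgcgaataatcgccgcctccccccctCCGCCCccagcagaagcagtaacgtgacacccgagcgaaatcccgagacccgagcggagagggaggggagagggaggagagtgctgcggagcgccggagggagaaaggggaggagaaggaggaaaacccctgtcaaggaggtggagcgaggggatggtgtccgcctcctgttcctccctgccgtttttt
HS6ST3, chr13:96089857-96090106, plus strand: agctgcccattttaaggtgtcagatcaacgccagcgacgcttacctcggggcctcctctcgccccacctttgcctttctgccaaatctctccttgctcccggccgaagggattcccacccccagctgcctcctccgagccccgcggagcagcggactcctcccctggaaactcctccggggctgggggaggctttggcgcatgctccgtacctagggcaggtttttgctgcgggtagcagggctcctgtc
GLCE, chr15:69160385-69160634, plus strand: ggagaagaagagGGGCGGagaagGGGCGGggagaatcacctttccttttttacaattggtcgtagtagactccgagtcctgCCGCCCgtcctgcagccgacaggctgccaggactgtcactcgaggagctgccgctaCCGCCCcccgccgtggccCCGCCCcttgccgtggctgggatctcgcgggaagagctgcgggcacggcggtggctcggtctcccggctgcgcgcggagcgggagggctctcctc
SDC3, chr1:30908759-30909008, minus strand: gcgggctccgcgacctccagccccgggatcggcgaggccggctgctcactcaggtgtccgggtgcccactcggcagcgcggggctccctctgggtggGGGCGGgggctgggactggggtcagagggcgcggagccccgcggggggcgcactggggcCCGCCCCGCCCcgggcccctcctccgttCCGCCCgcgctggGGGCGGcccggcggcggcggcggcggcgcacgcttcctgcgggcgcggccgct
HS2ST1, chr1:86914385-86914634, plus strand: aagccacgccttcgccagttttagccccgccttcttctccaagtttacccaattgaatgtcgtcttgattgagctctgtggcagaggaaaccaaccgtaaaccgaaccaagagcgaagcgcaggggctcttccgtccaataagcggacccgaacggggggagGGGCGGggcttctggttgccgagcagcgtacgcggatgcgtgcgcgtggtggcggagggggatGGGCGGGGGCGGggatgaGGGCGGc
GPC6, chr13:93226557-93226806, plus strand: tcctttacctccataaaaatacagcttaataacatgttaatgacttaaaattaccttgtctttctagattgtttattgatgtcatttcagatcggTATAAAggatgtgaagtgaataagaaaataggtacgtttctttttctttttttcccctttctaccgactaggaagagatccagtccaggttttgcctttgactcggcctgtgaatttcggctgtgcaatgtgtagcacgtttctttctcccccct

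GC boxes stood in the windows of 3 of 4 rising genes, and of 2 of the 3 falling genes that had windows. The SDC3 and GLCE windows held 5 matches each, HS2ST1 4 and UST 1, with overlapping matches in SDC3 counted separately. The 2 CHST8 windows held 4 and 1. No GC box was in the HS6ST3 or GPC6 windows, and GPC6 held TATAAA once. Of the 61 windows of 47 members 77.0% held a GC box, against 55.6% of the 14835 windows of measured genes and 42.6% of all 35116 RefSeq windows of this length. TATAAA was in 6.56% of the members' windows, against 8.15% of those of measured genes and 10.7% of all windows. CACGTG, the E-box of MYC proteins, which reads the same on both strands, was in 6.56% of the members' windows, against 7.61% of those of measured genes and 6.35% of all, and in none of the 6 shown. The median GC content was 67.6% in the members' windows and 62.4% in those of all measured genes.

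Among core proteins, the glypicans and syndecans did not move as a group. Of 10 measured, 1 rose and 2 fell (10% and 20%, where 3.72% and 4.80% of all genes did). The remaining 7 missed the threshold. SDC3, a syndecan of the nervous system that binds pleiotrophin, read 5.54, 5.57 and 5.38 in the shGLDC99 arrays, against 4.75, 4.82 and 4.91 in the shGFP arrays. All shGLDC99 arrays were above all shGFP arrays. SDC3 rose by 0.67 ± 0.0814 (SE), or 1.59-fold (adjusted p = 0.00796). Its shGFP mean of 4.83 ± 0.0814 (SD, n = 3) is below the median gene level and is not shown to exceed background, so the size of the rise is uncertain.

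GPC3, a glypican that restrains hedgehog signalling and growth, read 6.89, 6.92 and 6.95 with shGLDC99, against 7.60, 7.58 and 7.58 with shGFP. The spread within either group was small beside the gap, with means of 6.92 ± 0.0306 and 7.59 ± 0.00992 (SD, n = 3 each). GPC3 fell by 0.67 ± 0.0583 (SE), or 1.59-fold lower (adjusted p = 0.00361). GPC6, a glypican that astrocytes secrete to promote synapse formation, read 7.60, 7.53 and 7.61 with shGLDC99, against 7.98, 7.99 and 7.95 with shGFP. It fell by 0.39 ± 0.0599 (SE), or 1.31-fold lower, again without overlap of the groups (adjusted p = 0.0137). The GPC6 call was lost without shGLDC99 array b or without shGFP array a, b or c. Over the 6 fits that leave out 1 array, its adjusted p ran between 0.0468 and 0.0551.

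The other core proteins were not past the threshold. SDC2, a syndecan of mesenchymal and neuronal cells, read 6.17, 5.94 and 6.0 with shGLDC99, against 5.56, 5.81 and 5.68 with shGFP. Its difference was 0.35 ± 0.0951 (SE, adjusted p = 0.0695), with every shGLDC99 array higher. GPC1, an abundant glypican of neurons, differed by 0.27 with all shGLDC99 arrays higher (adjusted p = 0.149), and GPC5 by -0.37 with all lower (adjusted p = 0.183). GPC5 was dim, with group means of 2.78 with shGLDC99 and 3.15 with shGFP. SDC1, SDC4, GPC2 and GPC4 differed by between -0.10 and 0.06, with overlapping groups.

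**Figure D2:**
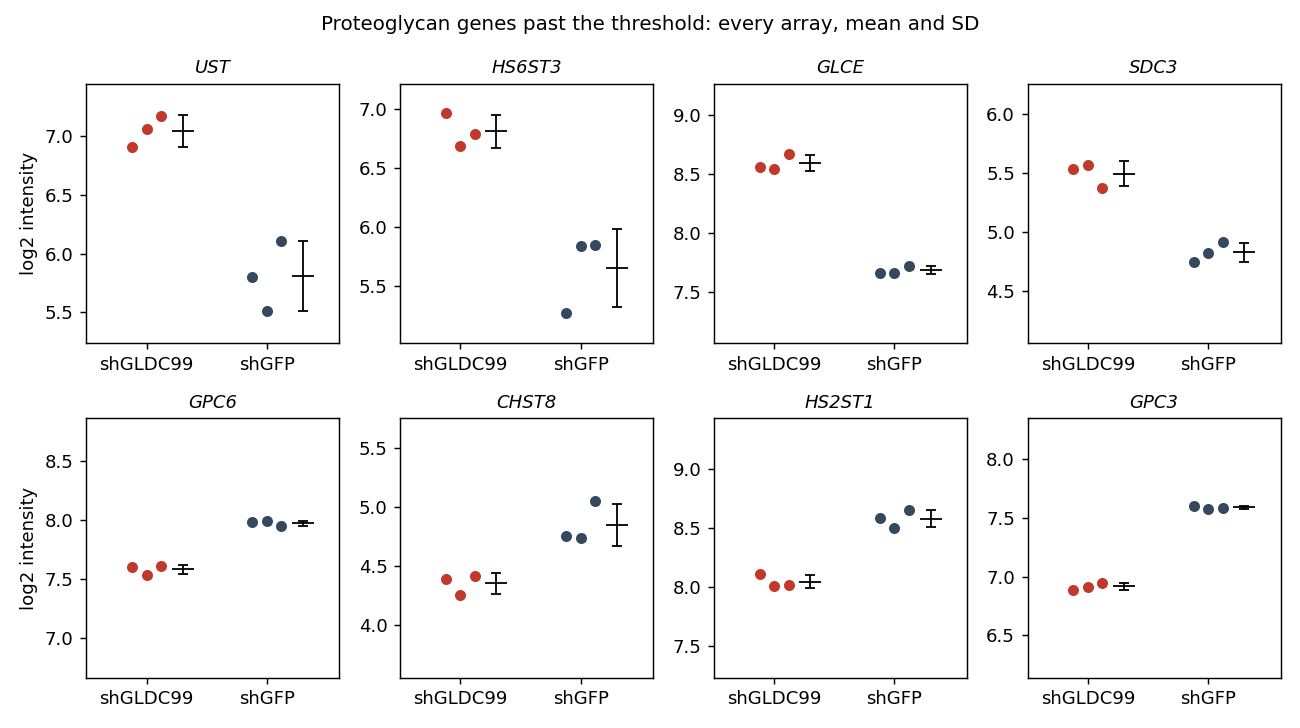
Log2 intensity of the 8 changed members in each array, with shGLDC99 arrays on the left and shGFP arrays on the right of each panel, 3 points for arrays a, b and c, and a bar for the mean ± SD. Every panel spans the same number of log2 units, and the groups do not overlap in any of the 8.

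The enzymes that begin the chains showed no call. XYLT1 and XYLT2 attach the first xylose to the core protein. XYLT2 differed by -0.36 (95% interval -0.69 to -0.03, adjusted p = 0.172) and XYLT1 by 0.06 (adjusted p = 0.789). EXT1 and EXT2, which form the heparan polymerase, differed by -0.11 and -0.06, with intervals of -0.30 to 0.08 and -0.24 to 0.13. All 5 measured EXT and EXTL genes had a negative difference, as did 7629 of all 14779 genes. The 5 differences lay between -0.24 for EXTL3 and -0.06 for EXT2, with overlapping groups. In limma none of these 5 was past the threshold, and none had an unadjusted p under 0.05. Of the 2 xylosyltransferases 1, XYLT2, had an unadjusted p under 0.05.

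Modification of the heparan chain held changes in both directions, at consecutive steps. GLCE, the epimerase that makes iduronic acid, read 8.56, 8.54 and 8.67 with shGLDC99, against 7.66, 7.66 and 7.72 with shGFP. The lowest shGLDC99 array was well above the highest shGFP array. GLCE rose by 0.91 ± 0.0661 (SE), or 1.88-fold, with means of 8.59 ± 0.0696 and 7.68 ± 0.0334 (SD, n = 3 each), and its adjusted p of 0.00194 was the smallest of the 56.

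HS2ST1, the sulphotransferase that acts on the iduronic acid GLCE has made, went the other way. Its levels were 8.11, 8.01 and 8.02 with shGLDC99, against 8.59, 8.50 and 8.65 with shGFP. It fell by 0.53 ± 0.0700 (SE), or 1.45-fold lower, with no overlap (adjusted p = 0.00926). Within each array, the log2 ratio of GLCE to HS2ST1 signal was 0.45, 0.53 and 0.65 with shGLDC99, against -0.92, -0.84 and -0.93 with shGFP. The ratio thus shifted by 1.44 log2 units between the groups, which describes unequal change of these 2 probe sets and not their relative amounts. This pair was chosen after the values were seen, and no test was run on the ratio.

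HS6ST3, a 6-O-sulphotransferase of heparan sulphate, had the second-largest difference among the members. It read 6.96, 6.68 and 6.79 with shGLDC99, against 5.27, 5.84 and 5.84 with shGFP. Array a of shGFP was lower than its other two replicates, and every shGLDC99 array was above all of them. HS6ST3 rose by 1.16 ± 0.170 (SE), or 2.24-fold (adjusted p = 0.0118), which placed it 17th among the rises of all genes. Without shGFP array a the rise was smaller, and over the 6 fits that leave out 1 array it ran between 0.97 and 1.26, past the threshold in all 6.

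The other 6-O enzymes, HS6ST1 and HS6ST2, had differences of -0.11 (95% interval -0.39 to 0.17) and 0.03 (-0.19 to 0.25). The interval of HS6ST3, 0.76 to 1.57, overlaps neither. Within arrays, the log2 ratio of HS6ST3 to HS6ST1 was 1.72, 1.71 and 1.8 with shGLDC99, against 0.22, 0.73 and 0.47 with shGFP. The HS6ST3 to HS6ST2 ratio was 2.15 to 2.59 with shGLDC99, against 0.96 to 1.51 with shGFP. Neither ratio overlapped between the groups, and these pairs, too, were picked with the values in view. Both ratios describe unequal change of probe sets and not relative amounts. HS6ST2 averaged 4.43 with shGLDC99 and 4.40 with shGFP, below the median gene level and not shown to exceed background.

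The 7 HS3ST genes, whose rare 3-O-sulphate group completes binding sites for proteins such as antithrombin, were all below the median gene level. Their differences lay between -0.20 for HS3ST5 and 0.17 for HS3ST3B1, and in all 7 the groups overlapped. None was past the threshold in limma or had an unadjusted p under 0.05. NDST1, the N-deacetylase and N-sulphotransferase that opens chain modification, differed by 0.03 (95% interval -0.17 to 0.23). NDST3 and NDST4, near the bottom of the measured range at means of 1.71 to 1.91, differed by -0.05 and 0.09. NDST2 was not among the genes measured, so the NDST step is covered only in part. SULF1 and SULF2, the secreted enzymes that remove 6-O-sulphate outside the cell, differed by -0.01 (-0.22 to 0.20) and -0.0023 (-0.35 to 0.34). Both were below the median gene level in either group, so their signal is not shown to exceed background.

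On the chondroitin and dermatan side, 1 of 13 measured enzymes changed (7.69%), near the 8.52% of all genes. UST, which adds 2-O-sulphate to the uronic acid of dermatan and chondroitin chains, read 6.90, 7.06 and 7.17 with shGLDC99, against 5.80, 5.51 and 6.10 with shGFP. The shGFP arrays spread more (SD 0.296, n = 3) than the shGLDC99 arrays (SD 0.136, n = 3), yet the groups did not overlap. UST rose by 1.24 ± 0.156 (SE), or 2.35-fold (adjusted p = 0.00864). It had the largest difference of the 56 members and was 14th among the rises of all genes. Leaving out 1 array gave 1.09 to 1.38, past the threshold in all 6 fits.

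The chondroitin chain builders CHSY1, CHSY3, CSGALNACT1 and CSGALNACT2 differed by 0.23, -0.09, 0.11 and 0.22. None of the 4 was past the threshold in limma. CSGALNACT2, which starts chondroitin chains, was the 1 with an unadjusted p under 0.05 and the 1 whose groups did not overlap. It read 7.53, 7.60 and 7.78 with shGLDC99, against 7.38, 7.43 and 7.44 with shGFP (adjusted p = 0.155). DSE, the epimerase that turns chondroitin into dermatan sulphate, differed by -0.08 (95% interval -0.26 to 0.10).

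The chondroitin and dermatan sulphotransferases showed small differences. CHST14, the dermatan 4-O-sulphotransferase, differed by -0.22 with all shGLDC99 arrays lower (adjusted p = 0.139). CHST11, the main chondroitin 4-O-sulphotransferase, differed by 0.11 with all shGLDC99 arrays higher (adjusted p = 0.299). CHST3, CHST7, CHST12, CHST13 and CHST15 differed by between -0.06 and 0.09, with overlapping groups.

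Of the 8 CHST genes that act mainly on other glycans, all had a negative difference and 1 fell, where 7629 of all 14779 genes had a negative difference and 4.80% fell. The mean over the 6 arrays was below the median gene level in 7 of the 8, whose signal is not shown to exceed background. CHST8, which sulphates N-acetylgalactosamine on glycoprotein hormones, read 4.39, 4.25 and 4.41 with shGLDC99, against 4.75, 4.74 and 5.05 with shGFP. It fell by 0.50 ± 0.103 (SE), with no overlap (adjusted p = 0.0344). Both of its group means were below the median gene level, so the size of the fall is uncertain. The call was lost without any 1 of the 6 arrays (adjusted p of 0.0656 to 0.104) and in a fit of all 31135 probe sets (adjusted p = 0.0521). CHST9, a related enzyme, differed by -0.43 with overlapping groups (adjusted p = 0.152), and the other 6 by -0.24 to -0.05.

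**Figure D3:**
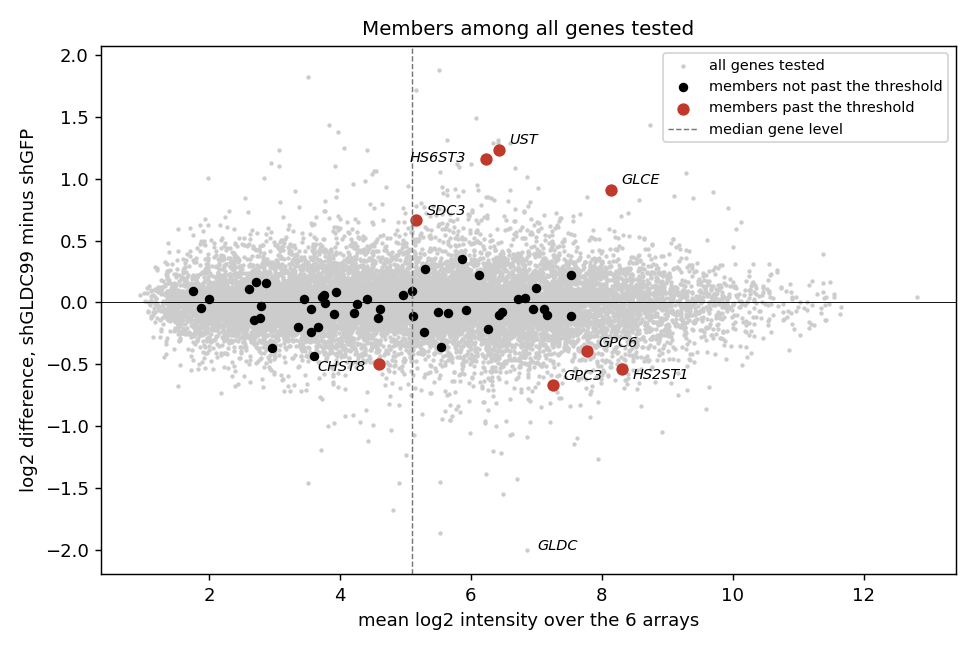
Log2 difference (shGLDC99 minus shGFP, vertical axis) against mean log2 intensity over the 6 arrays, with grey points for all 14779 genes, black points for the 48 members not past the threshold and red points for the 8 changed members. UST and HS6ST3 sit near the upper edge of the grey cloud, and 7 of the 8 red points lie to the right of the median gene level of 5.09.

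Genes of linked steps were taken from 5 lists of 113 genes, of which 75 were measured. Of these 75, 8 rose and 7 fell (20.0% changed, where 8.52% of all genes did), with a median log2 difference of -0.03. The lists were chosen with earlier results of these data known, so the higher share is no independent result about these genes. In fits without 1 array (each of the 6 in turn) the lists gave 3 to 5 rises and 2 to 4 falls. Of all genes, 3.12% to 3.69% changed in those fits. A fit of all 31135 probe sets gave 6 rises and 2 falls in the lists, with 4.57% of probe sets changed.

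Of the measured genes in these 5 lists, VCAN had the largest difference. VCAN, the large chondroitin sulphate proteoglycan versican, read 7.00, 7.00 and 7.01 with shGLDC99, against 8.16, 8.11 and 8.17 with shGFP. It fell by 1.14 ± 0.0583 (SE, adjusted p = 0.00101). HSPG2, which encodes the basement membrane proteoglycan perlecan, fell by 0.44 (adjusted p = 0.0441). APLP2, an amyloid precursor-like protein that can carry chondroitin sulphate, rose by 0.28 (adjusted p = 0.0365). With LUM, described next, 4 of 22 genes of this list changed (18.2%, where 8.52% of all genes did).

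LUM, which encodes the keratan sulphate proteoglycan lumican, rose by 0.52 to a shGLDC99 mean of 4.0, against 3.48 with shGFP (adjusted p = 0.0125). Both means are below the median gene level and not shown to exceed background, so the size of the rise is uncertain. LUM is also a fibroblast marker. Over the 3 measured fibroblast markers (LUM, THY1 and DCN), 1 rose, and the log2 of their summed level was 6.17 to 6.32 with shGLDC99, against 6.01 to 6.11 with shGFP. THY1, the brightest of the 3, weighs most in that sum. It averaged 5.83 with shGLDC99 and 5.69 with shGFP, with overlapping groups (limma adjusted p = 0.325). DCN stood at 1.73 with shGLDC99 and 1.67 with shGFP, near the bottom of the measured range. The part of such cells in the results was not tested.

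Sugar supply and polymerisation partners held 1 call each. UGDH, which makes the UDP-glucuronic acid that heparan and chondroitin chains are built from, read 9.12, 9.20 and 9.21 with shGLDC99, against 9.48, 9.43 and 9.56 with shGFP. It fell by 0.31 ± 0.0674 (SE, adjusted p = 0.0382), 1 of 6 measured genes of that list (16.7%, where 4.80% of all genes fell). PAPSS1 and PAPSS2, which make the sulphate donor, differed by -0.10 (adjusted p = 0.457) and -0.40 (adjusted p = 0.133). CHPF, the partner of the chondroitin synthases, rose by 0.38 ± 0.0711 (SE, adjusted p = 0.0251), 1 of 4 measured (25%, where 3.72% of all genes rose). DSEL, a second dermatan epimerase, differed by -0.41 with all shGLDC99 arrays lower (adjusted p = 0.0569).

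Of 15 measured genes of chain breakdown 2 rose (13.3%, where 3.72% of all genes did). IDS, the lysosomal sulphatase that removes 2-O-sulphate from iduronic acid, read 8.76, 8.73 and 8.79 with shGLDC99, against 8.08, 7.92 and 8.10 with shGFP. It rose by 0.73 ± 0.0740 (SE, adjusted p = 0.00511). IDS has a closely similar pseudogene, and which of them the probe set reads was not determined. HGSNAT, which acetylates the terminal glucosamine of heparan sulphate in the lysosome, rose by 0.53 ± 0.0694 (SE, adjusted p = 0.00938). The lysosomal hexosaminidase subunit HEXA (0.39, adjusted p = 0.0513) and the sulphatase ARSG (0.42, adjusted p = 0.0580) were higher in all shGLDC99 arrays without passing the threshold. SUMF2, also not past the threshold, was lower in all shGLDC99 arrays (-0.27, adjusted p = 0.0615). Of the 15 differences 8 were positive and 7 negative, with a median of 0.00514. HPSE, the heparanase that cuts heparan chains, differed by 0.00514 (95% interval -0.30 to 0.31).

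Among 30 measured growth factors, guidance cues and receptors linked to heparan sulphate, 3 rose and 4 fell. These are 10% and 13.3% of the list, where 3.72% and 4.80% of all genes rose and fell. FGF2, which needs heparan sulphate to bind its receptor, read 8.46, 8.48 and 8.41 with shGLDC99, against 8.06, 8.0 and 8.02 with shGFP, and rose by 0.43 ± 0.0604 (SE, adjusted p = 0.0111). FGF13, an intracellular relative of the FGFs, rose by 0.49 (adjusted p = 0.0219). LRRTM4, a postsynaptic partner of glypicans, rose by 0.44 (adjusted p = 0.0486).

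The 4 falls in that list were SLIT3, PTN, MET and FGF18. SLIT3, a guidance ligand, fell by 0.47 (adjusted p = 0.00975), and PTN, which encodes pleiotrophin, a ligand of SDC3 and of chondroitin sulphate chains, fell by 0.49 ± 0.112 (SE, adjusted p = 0.0464). MET, the receptor of hepatocyte growth factor, fell by 0.30 (adjusted p = 0.0382). FGF18, named to complete the count after its value was seen, fell by 0.66 (adjusted p = 0.0487), with a shGLDC99 mean of 4.35 below the median gene level.

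**Figure D4:**
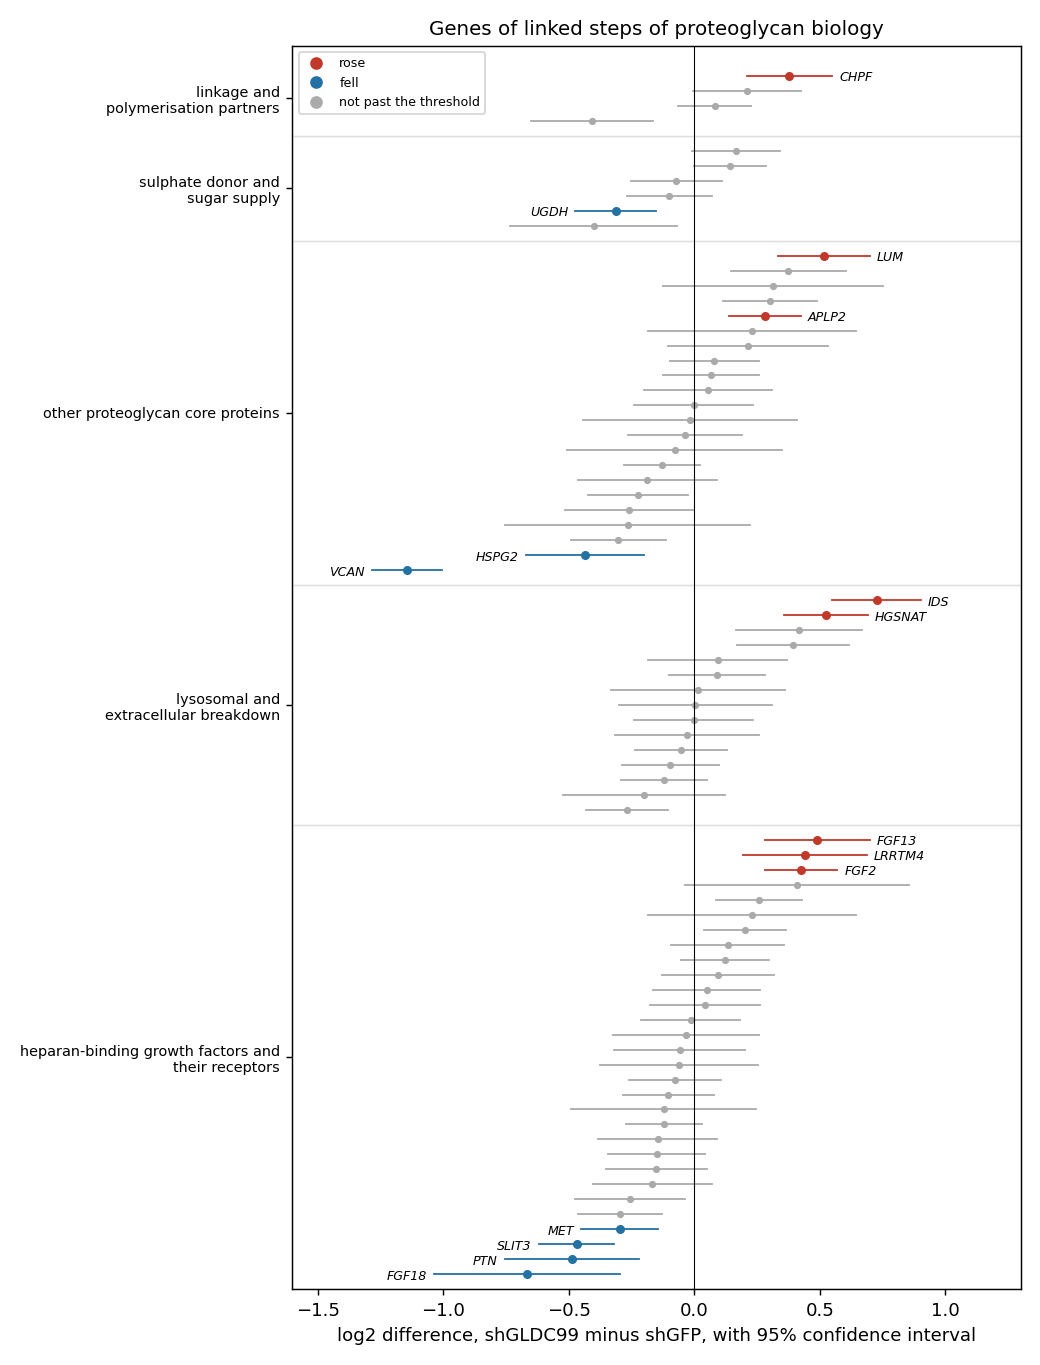
Log2 difference (shGLDC99 minus shGFP) with 95% confidence interval for the measured genes of 5 lists of linked steps, with red for genes that rose, blue for genes that fell and grey for those not past the threshold. VCAN (-1.14) lies apart at the left and IDS (0.73) at the right, and genes shared by 2 lists are drawn in both.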

How the data were processed

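The 6 arrays were compared from the authors' deposited values, 1 per probe set and array, read as log2 intensity. The base is inferred, since values reach 13.28 while natural logs of 16-bit intensities end at 11.09. The submitters' processing notes name Partek without a version, and how background, normalization and summarisation were handled is not stated. Array medians were 4.28 to 4.33, and no further normalization or filter was applied.

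Of 31135 probe sets, 15098 carried 1 gene symbol in the platform annotation, 0 several and 16037 none. All 15098 matched RefSeq by Entrez ID, with 0 symbols updated. The 14779 genes each took their brightest probe set by mean over the arrays, and 256 had several. Differences are shGLDC99 minus shGFP, fitted in limma 3.58.1 under R 4.3.3, with lmFit and eBayes and no covariates. The Benjamini-Hochberg adjustment ran over all genes. Plots used matplotlib 3.10.9. Beyond calling them independent, the design text does not say how the replicates were separated, so p-values speak for the spread among these arrays, which may be technical. The number of arrays limits the precision.

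All members were to be named, with every array for those changed or differing by at least 0.5, and up to 6 changed genes per linked list, by adjusted p. Members and lists were chosen with earlier results of these data known. Alternatives were quantile normalization again, median centring, leaving out the dimmest 40% of genes, averaging probe sets, all probe sets, an intensity trend in the prior variance, the replicate letter as a block, leaving out each array, and an adjusted p of 0.01.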

Additional observations from a re-analysis of the deposited data

How the results depend on the processing

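The 4 rises (UST, HS6ST3, GLCE, SDC3) were kept under quantile normalization again, median centring, averaged probe sets, all probe sets, the filter, the intensity trend and every fit without 1 array, and all 56 members kept their sign under both rescalings. Leaving out 1 array gave 4 rises in each fit and 2 to 3 falls among members, 207 to 240 rises and 238 to 327 falls over all genes, and 3 to 5 rises and 2 to 4 falls among linked genes. The GLDC difference then ran between -2.07 and -1.90. With an adjusted p of 0.01, 3 members rose (HS6ST3 was lost) and 2 fell, 118 genes rose and 157 fell, and 2 linked genes rose and 2 fell. Without the dimmest 40% of genes, 969 of 8867 genes rose and 1252 fell; 32 members were tested, and SDC2 was also called (adjusted p = 0.0249). With an intensity trend 1088 genes rose, 1350 fell and 13 linked genes rose, and SDC2 and CSGALNACT2 were also called (adjusted p = 0.0237 and 0.0367). Over all probe sets 2 linked genes fell. The cause of these shifts was not tested, except that fewer arrays, fewer genes or a stricter threshold are part of the settings themselves.

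With the replicate letter as a block, 2 members rose (UST, GLCE) and 1 fell (GPC3), 103 genes rose and 126 fell, and 1 linked gene rose and 1 fell. The letters share no stated origin. Deviations of same-lettered arrays correlated at -0.0119, 0.0182 and -0.00106, and 2 of 6 arrays correlated best with their own letter, so the block is given here alone. Signals below the median gene level are not shown to exceed background, which limits SDC3, CHST8, LUM, FGF18 and the HS3ST genes, among others.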

Other observations

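The 3 antisense transcripts left out of the gene set were dim and not past the threshold. HS6ST2-AS1 averaged 2.71 with shGLDC99 and 2.75 with shGFP, GPC5-AS1 2.22 and 2.28, and GPC6-AS2 1.65 and 1.78, each on the log2 scale.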
